A study of Mus musculus with 12 samples.

Results

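The comparison set aged hematopoietic stem and progenitor cells (HSPCs) that had been cultured with vehicle against aged HSPCs that had not been cultured. Its members were the 3 vehicle libraries and the 3 uncultured aged libraries, 6 of the 12 libraries of the series, chosen by their labels. All genes were considered: of 54532 gene IDs in the count table, 16675 passed the filter on low counts and were tested. The series measured messenger RNA of mouse bone marrow HSPCs in 4 groups of 3 libraries, and the remaining 6 libraries held uncultured young cells and aged cells cultured with uridine. Its title concerns uridine, and the vehicle libraries are the control of the uridine culture. The vehicle libraries carry the genotype label c57bl/6 WT. The uncultured aged libraries are labelled c57bl/13 WT, c57bl/14 WT and c57bl/15 WT, a run of numbers that leaves the strain uncertain. All 6 libraries are labelled bone marrow and aged HSPC. The sources used here do not give the age of the mice, the markers of the sort, the culture time, the medium or the identity of the vehicle. The labels do not say whether the cultured cells came from the same mice as the uncultured ones, so culture and the source of the cells cannot be told apart.

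Hematopoietic stem cells of the bone marrow are mostly quiescent, and the progenitors downstream of them divide and commit to the myeloid, erythroid, megakaryocyte or lymphoid lineages. Outside the marrow these cells depend on the growth factors and serum or lipid sources of the medium, and they differentiate as they divide. Immediate early genes respond to a stimulus within minutes, interferon-stimulated genes answer type I interferon or viral sensors, and cholesterol synthesis genes are switched on by SREBP2 when cell sterol is low.

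Library totals ran from 16785065 to 19025802 counts over the 12 libraries, and levels are given as CPM (counts scaled by library total and TMM factor), so that 3 values in a sentence are the 3 libraries of a group. Each pair of libraries of a group differed by more than counting noise: chi-square divided by its degrees of freedom was 2.27 to 3.94. The labels name no separate animals or cultures, and a p-value here measures no more than the spread among the libraries, possibly a technical one. Among 143 immunoglobulin V segments with a mean of at least 20 CPM in the uncultured aged libraries, the median coefficient of variation over the 3 libraries was 4.75%. Single segments ran from 1.07% to 40.4%. Immunoglobulin genes and Jchain took 21.8% ± 0.171 of all counts in the uncultured aged libraries (SD, n = 3) and 0.923% ± 0.00141 in the vehicle libraries. The share was 0.543% in uncultured young and 0.606% in uridine libraries, so the uncultured aged libraries stood apart from the other 9.

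The HSPC label was checked against its defining genes. Ptprc, the CD45 antigen of all blood cells, was at 369, 406 and 403 CPM uncultured and 402, 411 and 407 CPM in vehicle, and was called higher only without the low-count filter or without uncultured replicate 2 (edgeR adjusted p = 0.0138 and 0.0305). Kit, the stem cell factor receptor, was at 198, 204 and 203 against 263, 263 and 260.3 CPM, and Cd34 at 192, 203 and 207 against 405, 404 and 412 CPM. Flt3, Procr, Hlf and Ly6a were also present in every library. Markers of mature B cells and plasma cells stood beside them in the uncultured aged libraries, where Pax5, the commitment factor of B cells, was at 181, 168 and 185 CPM and Sdc1, the CD138 antigen of plasma cells, at 282, 279 and 299 CPM. Markers of cell types that the label does not name were thus present in these libraries.

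Vehicle culture went with higher levels of interferon-stimulated, chemokine, megakaryocyte, activated macrophage and cholesterol synthesis genes. Genes of B cells, plasma cells, T cells, maturing erythroid cells and granulocyte progenitors were lower, as were the immediate early genes. edgeR's quasi-likelihood test called 5903 genes higher and 5845 lower at a Benjamini-Hochberg adjusted p under 0.05, which is 70.5% of the genes tested (35.4% higher and 35.1% lower). A change of at least 1 on the log2 scale was called for 1938 genes higher (11.6%) and 2863 genes lower (17.2%). The libraries of the groups did not overlap for 71.5% of genes. With so many genes called, the count of called members of a gene list is read against these shares, and the median log2 fold change of a list against that over all genes tested, -0.01. In the plot of fold change against level, interferon-stimulated, cholesterol and megakaryocyte genes lie above 0, while immediate early, B cell and most erythroid genes lie below.

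**Figure D1:**
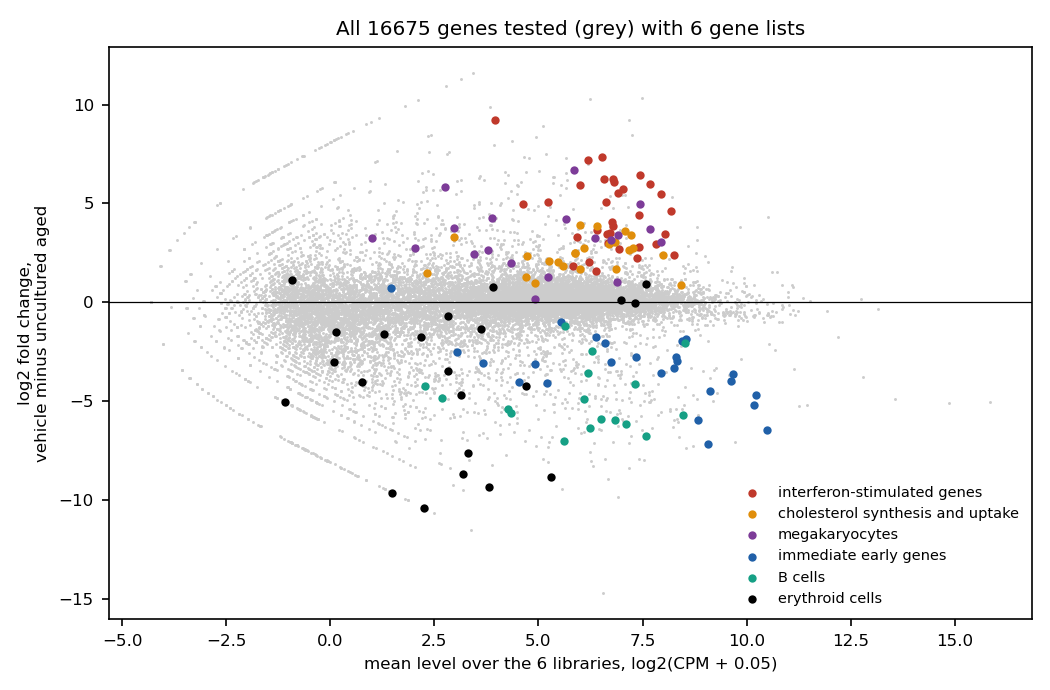
Log2 fold change (vehicle culture minus uncultured aged) of each of the 16675 genes tested against its mean level over the 6 libraries as log2(CPM + 0.05). Grey points are all genes and colored points are members of 6 gene lists. All 33 interferon-stimulated and all 23 cholesterol genes lie above 0 and all 17 B cell genes below.

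The lists hold known genes of cell types and pathways and were chosen with earlier results of these data known, so their counts describe the data and are no independent evidence. Within a list, members with the smallest p were preferred for naming. That groups do not overlap for such genes follows in part from this choice and does not describe the whole list. The plot of list members shows that the lists spread from a median of -5.39 for B cells to 4.43 for interferon-stimulated genes.

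**Figure D2:**
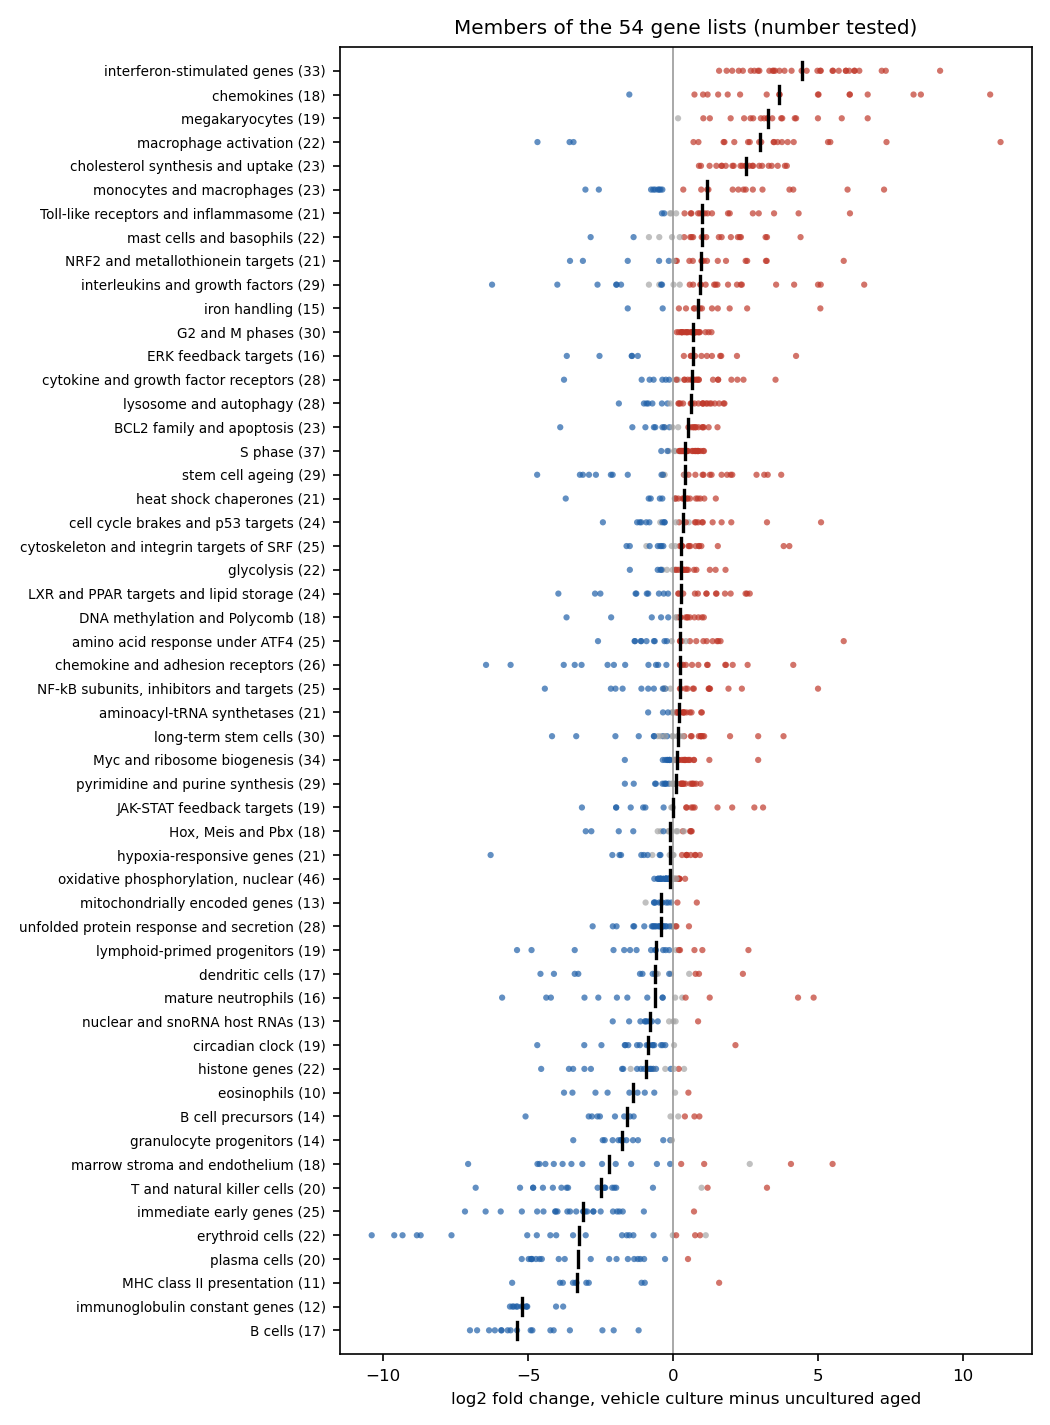
Log2 fold change (vehicle culture minus uncultured aged) of each tested member of the 54 gene lists. Red points were called higher, blue points lower and grey points were not called by edgeR. Black bars are list medians, which run from -5.39 at the bottom to 4.43 at the top.

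B lineage and plasma cell genes were lower in the vehicle libraries nearly throughout. Of 17 B cell genes, 17 fell (median log2 fold change -5.39). Among 20 plasma cell genes 19 fell (median -3.29), and all 12 immunoglobulin constant genes tested fell (median -5.2). Here and below, fewer cells of a type and less RNA per cell cannot be told apart in bulk samples. Pax5 was at 3.26, 3.46 and 2.03 CPM in the vehicle libraries. The gene lies on the GRCm38 assembly on chromosome 4, 44524757 to 44710487, minus strand (ENSMUSG00000014030) and fell by 5.92 in log2 units, with a standard error of 0.091 and an adjusted p of 1.12e-35 from edgeR. Igha, the constant region of IgA, was the most abundant gene of the uncultured libraries with 9.58% of counts and took 0.368% in vehicle. Jchain, the joining chain of polymeric antibodies, was at 23598, 23350.3 and 23474 CPM uncultured and 796, 786 and 761 CPM in vehicle. Prdm1, the transcription factor Blimp-1 of plasma cells, was at 139, 127 and 134 against 8.31, 8.35 and 9.21 CPM. None of these genes overlapped between the groups. Summed over the plasma cell list, the level ran from 28958 to 29244 CPM in the uncultured and from 1850.0 to 1918 CPM in the vehicle libraries.

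Other lymphoid and antigen-presenting genes followed. Of 20 T and natural killer cell genes 17 fell and 2 rose (median -2.49). Cd8a, a coreceptor of cytotoxic T cells, was at 13.7, 13.6 and 13.9 CPM uncultured and 0.368, 1.1 and 0.847 CPM in vehicle. Cd3e, a chain of the T cell receptor complex, was at 5.13, 5.57 and 7.03 against 0.105, 0.385 and 0.282 CPM. The levels of both were low in each group and did not overlap. Of 11 genes of MHC class II presentation 10 fell (median -3.34). Ciita, the master transactivator of MHC class II, fell by 2.91 on the log2 scale from 88.2 ± 7.64 to 11.7 ± 1.8 CPM. Its target Cd74, the invariant chain, went from 4113 ± 112 to 396 ± 1.8 CPM. Ctss, a lysosomal protease that also acts in macrophages, was the member that rose, from 199.7 ± 4.63 to 598 ± 14.6 CPM. B cell precursor genes fell less uniformly, with 9 of 14 lower, 3 higher and 2 not called.

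Genes of late erythroid maturation were lower in the vehicle libraries, and several had few or no counts there. Of 22 erythroid genes 17 were lower, 3 higher and 2 not called, with a median of -3.24. Slc4a1, the anion exchanger of red cells, was at 5.86, 4.8 and 5.79 CPM uncultured and had 0 counts in the 3 vehicle libraries, at least 100.5-fold lower with the vehicle group set to a floor of 3 counts in all. Rhag, a membrane protein of red cells, also had 0 counts in vehicle, at least 172-fold lower. These floors, and the counting intervals below, cover counting error only. Car1, a carbonic anhydrase of red cells, was at 78.6, 79.5 and 77.2 CPM uncultured and 0.105, 0.22 and 0.169 CPM in vehicle. Klf1, a transcription factor of erythroid maturation, was at 13.2, 13.8 and 11.4 against 1.37, 1.21 and 0.904 CPM. Among the members that rose were Gata1 and Tfrc. Gata1, which erythroid, megakaryocyte and mast cell progenitors share, was at 11.3, 12.9 and 9.37 CPM uncultured and 17.7, 18.2 and 20.9 CPM in vehicle and rose by 0.75 on the log2 scale. Tfrc, the transferrin receptor, rose from 132 ± 5.28 to 251 ± 4.58 CPM. The globin genes Hba-a1 and Hbb-bs fell as well, but near-identical copies make their counts uncertain.

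Megakaryocyte genes were higher in the vehicle libraries. Of 19 tested 18 rose, each by at least 1 on the log2 scale, and 1 was not called (median 3.25). Pf4, the platelet chemokine CXCL4, was at 10.5, 12.4 and 8.89 CPM uncultured and 343, 336 and 332 CPM in vehicle. It lies on chromosome 5, 90772435 to 90773383, plus strand (ENSMUSG00000029373) and rose by 4.99 in log2 units, with a standard error of 0.064 and an adjusted p of 3.69e-38 from edgeR. Itga2b, the CD41 antigen, was at 56.3, 52.3 and 52.9 against 431, 442 and 440.2 CPM, and its partner Itgb3 at 27.8, 29.6 and 28.9 against 382, 382 and 378 CPM. Vwf, von Willebrand factor, was at 22.4, 23.03 and 19.9 against 189, 187 and 199.6 CPM. Both groups were tight and far apart for each of these genes. The summed level of the list ran from 303 to 308 CPM in the uncultured and from 2306 to 2320.3 CPM in the vehicle libraries.

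Granulocyte progenitor genes fell and macrophage genes rose. Of 14 granulocyte progenitor genes 13 fell and 1 was not called (median -1.77). Mpo, myeloperoxidase of primary granules, was at 7216, 7094 and 7453 CPM uncultured and 2207, 2119 and 2186 CPM in vehicle. Elane, neutrophil elastase, was at 2773, 2736 and 2876 against 521, 516 and 517 CPM. Prtn3, proteinase 3, fell by 2.09 in log2 units. Of 16 genes of mature neutrophils 10 fell and 4 rose. The secondary granule genes Ltf (57.3 ± 1.97 to 9.53 ± 1.3 CPM), Ngp (123 ± 2.02 to 31.9 ± 2.45 CPM) and Camp (53.5 ± 5.02 to 6.39 ± 0.589 CPM) were among those that fell. Mmp8, a collagenase of neutrophil granules, rose from 2.13 ± 0.816 to 60.98 ± 1.1 CPM. Lyz2, the lysozyme that neutrophils share with monocytes and macrophages, was at 139, 139 and 143 CPM uncultured and 2784, 2777 and 2743 CPM in vehicle.

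Of 23 monocyte and macrophage genes 14 rose and 9 fell (median 1.17). Csf1r, the M-CSF receptor, was at 78.7, 73.5 and 76.5 CPM uncultured and 412, 409 and 405 CPM in vehicle. Fcgr1, the high-affinity IgG receptor, was at 0.866, 0.696 and 0.344 against 99.3, 99.6 and 100.02 CPM. Cx3cr1, the fractalkine receptor of monocytes, was at 4.26, 5.36 and 4.2 against 78.5, 79.5 and 85.9 CPM. No library of one group reached the other for these 3 genes. C1qa, a complement gene of resident marrow macrophages, fell from 4.88 ± 1.14 to 0.813 ± 0.313 CPM, and Klf4, a monocyte and immediate early factor, from 189.8 ± 5.63 to 23.3 ± 1.45 CPM. Macrophage activation genes rose more uniformly, 19 of 22 (median 3.0). Gpnmb, a glycoprotein of lipid-laden macrophages, was at 13.4, 14.1 and 15.2 CPM uncultured and 584, 586 and 559.7 CPM in vehicle. Lpl, lipoprotein lipase, was at 5.99, 5.98 and 5.72 against 257, 251 and 249 CPM, and the scavenger receptor Msr1 at 0, 0.626 and 0.276 against 49.5, 49.5 and 49.9 CPM. Apoe, the apolipoprotein of macrophages and stroma, fell by 4.68 and the osteoclast phosphatase Acp5 fell by 3.44 in log2 units, and Arg1, an arginase, went from 3.76 ± 1.14 to 0.307 ± 0.156 CPM. The summed level of the macrophage activation list ran from 1331 to 1394 CPM in the uncultured and from 4003 to 4045 CPM in the vehicle libraries.

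Mast cell and basophil genes were mostly higher, with 16 of 22 that rose and 2 that fell (median 1.0). Cpa3, the carboxypeptidase of mast cells, was at 25.03, 26.02 and 23.8 CPM uncultured and 95.02, 101 and 101 CPM in vehicle. Mcpt8, a protease of basophils, was at 46.3, 46.8 and 45.95 against 98.7, 104 and 103 CPM. Eosinophil genes were lower, 8 of 10 (median -1.37). Prg2, the eosinophil major basic protein, fell from 117 ± 5.17 to 49.8 ± 1.77 CPM, and Il5ra, the IL-5 receptor, from 32.1 ± 2.27 to 2.36 ± 0.309 CPM. Of 18 genes of marrow stroma and endothelium 13 fell (median -2.22), mostly at low levels. Cxcl12, the niche chemokine that retains stem cells in the marrow, was at 6.92, 5.78 and 4.82 CPM uncultured and 0.0526, 0 and 0.0565 CPM in vehicle, where it had 2 counts in all. Its ratio of uncultured to vehicle was 161 (95% counting interval 44.1 to 1335). The plot of marker levels by group places the uncultured aged libraries highest for plasma, immunoglobulin, B cell and MHC class II lists and the vehicle libraries highest for megakaryocyte and macrophage activation lists.

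**Figure D3:**
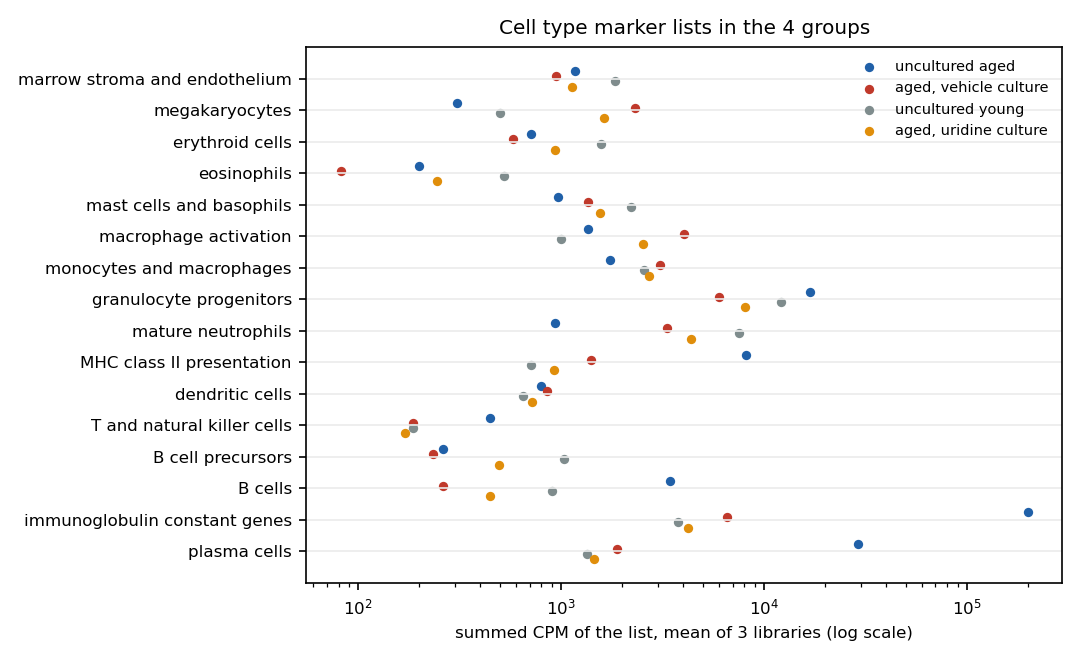
Summed CPM of 16 cell type lists, as the mean of 3 libraries for each of the 4 groups, on a log axis. The vehicle group (red) lies below the uncultured aged group (blue) for plasma cells, 29121 against 1891 CPM, and above it for megakaryocytes, 305 against 2313 CPM.

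Stem cell genes had no common direction. Of 30 genes of long-term stem cells 12 were higher, 8 lower and 10 not called, with a median of 0.16. Procr, the endothelial protein C receptor that marks long-term stem cells, was at 15.3, 13.01 and 18.3 CPM uncultured and 18.3, 18.3 and 17.96 CPM in vehicle. The groups overlapped, and edgeR gave an adjusted p of 0.0771 at a log2 fold change of 0.23 (SE 0.12). Without uncultured replicate 3 it was called higher (log2 fold change 0.36, edgeR adjusted p = 0.00984). Mecom, a transcription factor of stem cell self-renewal, was at 13.6, 14.8 and 16.6 against 16.2, 13.7 and 14.7 CPM (log2 fold change -0.01, SE 0.11, edgeR adjusted p = 0.936). Slamf1, the CD150 antigen, was at 7.12, 6.89 and 6.61 against 5.26, 5.77 and 5.76 CPM and did not pass the test (edgeR adjusted p = 0.129). Hoxa9, a homeobox gene of stem and progenitor cells, was at 30.96, 30.1 and 32.2 against 35.7, 31.9 and 35.9 CPM (edgeR adjusted p = 0.0787, or 0.0248 without vehicle replicate 2). A p above the threshold does not show that these levels were equal.

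Other stem cell genes did pass. Cd34 rose by 1.02, Ly6a (the Sca-1 antigen, itself induced by interferon) by 0.88, Gata2 by 0.63, Meis1 by 0.61 and Kit by 0.38 on the log2 scale. Mycn, a growth factor-responsive Myc gene, was at 5.26, 5.08 and 6.48 CPM uncultured and 41.5, 43.4 and 43.4 CPM in vehicle. Ifitm3, a membrane protein of stem cells that interferon also induces, rose from 60.03 ± 4.45 to 839 ± 5.74 CPM. On the other side, Hlf, a factor of stem cell quiescence, was at 35.9, 43.97 and 41.8 against 29.1, 32.2 and 33.3 CPM and fell by 0.36. Mllt3, which maintains human stem cells in culture, fell by 0.67, Fgd5 fell by 1.19 and Robo4, an adhesion receptor that anchors stem cells to the niche, fell by 1.99. The uncultured values of Hlf, Mllt3, Fgd5 and Robo4 were above the vehicle values in every library. Genes reported as higher in stem cells of old mice gave 16 higher, 10 lower and 3 not called of 29 (median 0.41). Those that rose include Vwf and Itgb3 of the megakaryocyte list. Of 18 Hox, Meis and Pbx genes 9 were not called. Lymphoid-primed progenitor genes were mostly lower (13 of 19, median -0.59).

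**Figure D4:**
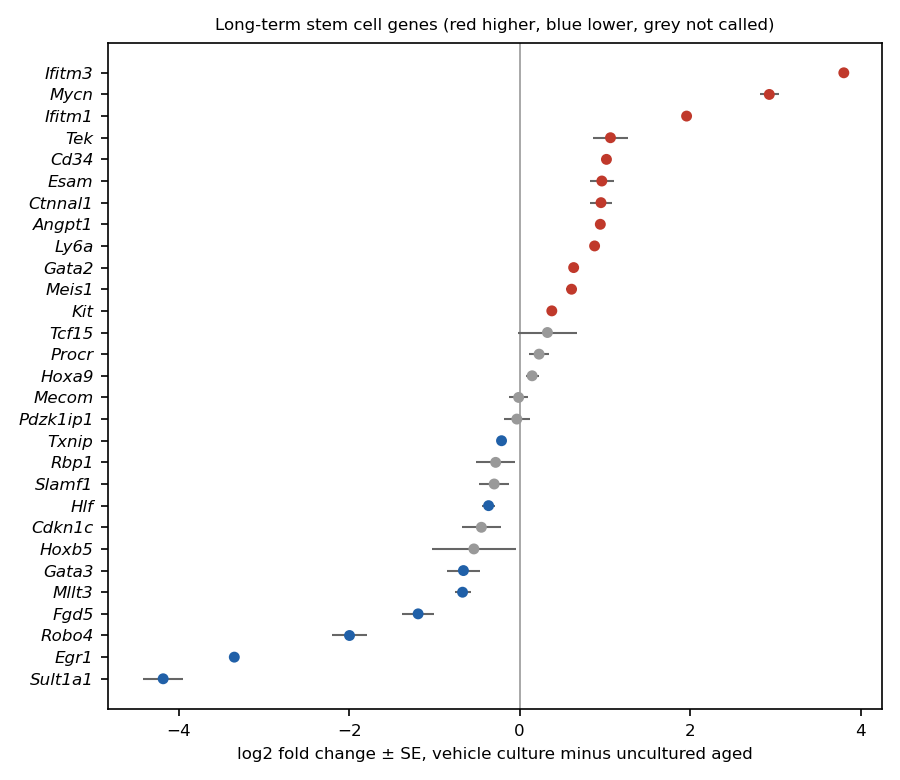
Log2 fold change (vehicle culture minus uncultured aged) with its standard error for 29 of the 30 tested genes of long-term stem cells. Red points were called higher, blue lower and grey not called by edgeR. Mecom lies at -0.01, Ifitm3 at 3.8 and Sult1a1 at -4.18.

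Interferon-stimulated genes were the list with the highest median of the 54. All 33 tested rose, each by at least 1 on the log2 scale (median 4.43), where 11.6% of all genes rose that far. The 250 bases before the gene start are shown for 3 strongly raised antiviral genes because an interferon response element, the sequence that the type I interferon signal acts on, can be read in them. The sequences are from RefSeq on GRCm38.p6, 5′ to 3′ along the gene's strand, with capitals for matches, on either strand, to GAAA followed by any 2 bases and GAAA again. The windows are chr4:156200819-156201068 on the minus strand for Isg15, chr19:34640639-34640888 on the plus strand for Ifit1 and chr12:26456453-26456702 on the minus strand for Rsad2.
Isg15: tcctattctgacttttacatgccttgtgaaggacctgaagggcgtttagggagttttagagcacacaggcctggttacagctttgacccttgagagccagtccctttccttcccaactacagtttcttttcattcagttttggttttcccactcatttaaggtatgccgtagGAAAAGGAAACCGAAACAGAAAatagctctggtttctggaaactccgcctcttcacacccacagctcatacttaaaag
Ifit1: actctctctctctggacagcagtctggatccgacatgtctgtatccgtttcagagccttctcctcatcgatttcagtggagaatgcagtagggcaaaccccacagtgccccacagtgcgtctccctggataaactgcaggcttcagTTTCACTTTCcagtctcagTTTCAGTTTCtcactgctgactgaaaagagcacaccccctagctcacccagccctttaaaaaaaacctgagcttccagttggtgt
Rsad2: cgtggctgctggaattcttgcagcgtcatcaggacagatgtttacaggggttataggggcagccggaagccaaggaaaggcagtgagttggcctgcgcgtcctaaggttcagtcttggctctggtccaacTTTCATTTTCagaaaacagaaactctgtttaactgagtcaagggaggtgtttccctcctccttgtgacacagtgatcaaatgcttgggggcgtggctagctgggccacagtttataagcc
The Isg15 promoter holds 3 overlapping matches, of which the farthest starts 78 bases before the gene start. Ifit1 holds 2, the farthest at 104 bases, and Rsad2 holds 1 at 120 bases. In the window of 250 bases before to 50 after the gene start, the motif was found in 14 of 28 promoters of 23 list genes with an entry (50%) and in 3.44% of all 32851 promoters. A match is a description of the sequence and not evidence of binding.

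Isg15, a ubiquitin-like modifier, was at 3.06, 2.99 and 2.55 CPM uncultured and 217, 221 and 219 CPM in vehicle. The gene lies on chromosome 4, 156199424 to 156200818, minus strand (ENSMUSG00000035692) and rose by 6.25 in log2 units, with a standard error of 0.070 and an adjusted p of 5.36e-40 from edgeR. Ifit1, which binds viral RNA caps, was at 1.07, 0.974 and 1.38 against 188, 181 and 185 CPM. Rsad2, the antiviral enzyme viperin, was at 4.73, 4.52 and 2.76 against 344, 344 and 343 CPM. All 3 vehicle values of these genes were far above all uncultured values. Irf7, the factor that amplifies interferon production, was at 20.4, 23.5 and 25.1 against 554, 553 and 568 CPM, and Usp18, which damps interferon receptor signaling, at 3.73, 1.39 and 2.14 against 191, 183 and 186 CPM. Among the ligands, Ifnb1 (interferon beta) had 0 counts in the uncultured libraries and 40 in the vehicle libraries, at 0.105, 0.879 and 1.24 CPM (at least 10.7-fold higher). Ifng (interferon gamma), a product of T and natural killer cells, went the other way, from 2.97 ± 0.439 to 0.251 ± 0.217 CPM. In the uncultured young libraries Isg15 was at 4.84 ± 0.349 CPM and in the uridine libraries at 120.2 ± 3.68 CPM. Macrophage activation markers, summed above, were higher in the same 3 vehicle libraries. Their part in the rise was not tested.

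**Figure D5:**
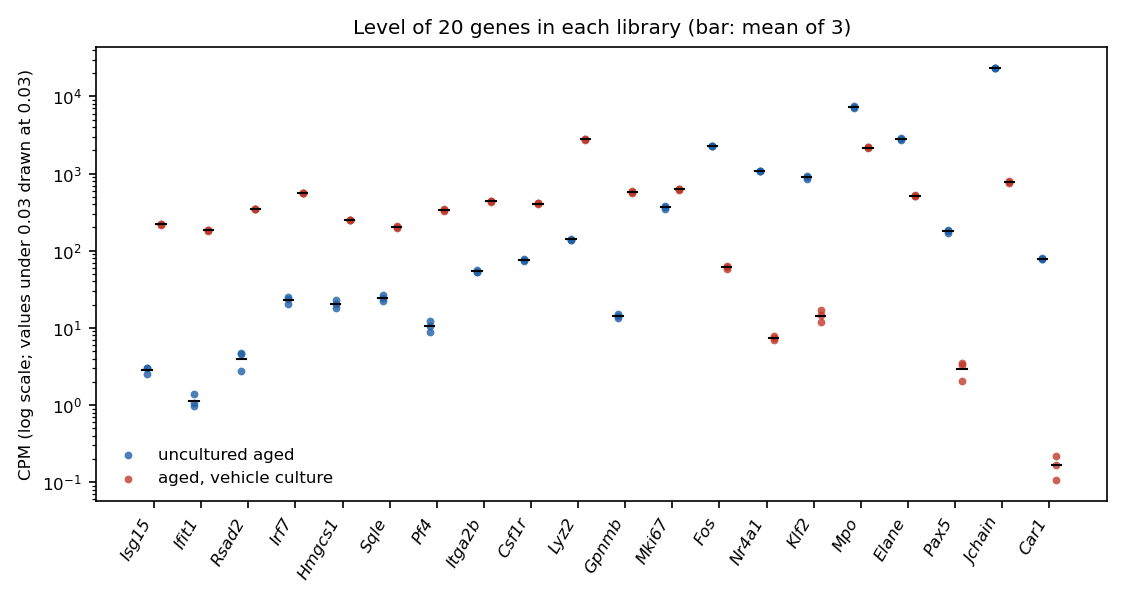
CPM of 20 genes in each of the 6 libraries on a log axis, with bars at the mean of 3. The 3 libraries of a group nearly coincide, and the groups do not overlap for any of the 20 genes. Isg15 stands at 2.87 and 219 CPM on average, and Nr4a1 at 1078 and 7.42 CPM.

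Chemokine genes rose with them. Of 18 tested 17 rose (median 3.66), and Xcl1, a T and natural killer cell chemokine, fell. Ccl2, which attracts monocytes, was at 0.599, 1.88 and 0.62 CPM uncultured and 33.2, 33.6 and 33.1 CPM in vehicle. Its neighbor in function Ccl7 had 0 counts uncultured and was at 12.1, 13.7 and 15.02 CPM in vehicle, at least 199-fold higher. Cxcl10, an interferon-induced chemokine, was at 18.6, 18.7 and 17.6 against 231, 237 and 224 CPM. Of 29 interleukins and growth factors 17 rose and 8 fell. Il1b was at 0.266, 1.11 and 1.24 against 27.9, 28.8 and 26.7 CPM, and Il1rn, the antagonist of the same receptor, at 0.866, 0.278 and 0.413 against 47.9, 50.2 and 55.1 CPM. Il6 was at 1.07, 4.04 and 2.48 against 2.26, 3.68 and 2.88 CPM, overlapped and was not called, but without uncultured replicate 2 it was called higher (log2 fold change 0.74, edgeR adjusted p = 0.0182). Il10, an anti-inflammatory cytokine, fell from 11.2 ± 1.33 to 0.694 ± 0.265 CPM and Vegfa, the endothelial growth factor, from 76.1 ± 3.82 to 21.8 ± 0.734 CPM.

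Genes of innate sensing and NF-kB did not move as a block. Of 21 genes of Toll-like receptors and the inflammasome 16 rose (median 1.01), led in level by Tlr2, the receptor of bacterial lipopeptides, which rose from 15.4 ± 1.29 to 119 ± 3.78 CPM. Nlrp3, an inflammasome sensor, was at 31.1, 22.7 and 31.4 against 31.3, 31.2 and 28.97 CPM and was not called. NF-kB subunits, inhibitors and targets were split, with 13 higher and 10 lower of 25. Tnf rose from 10.2 ± 1.02 to 52.8 ± 2.6 CPM. The feedback inhibitors Nfkbia (527 ± 5.67 to 119 ± 3.71 CPM) and Tnfaip3 (369 ± 6.37 to 110 ± 4.33 CPM) fell.

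All 23 genes of cholesterol synthesis and uptake rose, 21 of them by at least 1 on the log2 scale (median 2.5). The promoter of Hmgcs1, which makes the HMG-CoA from which sterols are built, is shown because the sterol regulatory element of SREBP2 can be read in it. Capitals mark the match to TCACNCCAC in the 250 bases before the gene start, chr13:119690101-119690350 on the plus strand (RefSeq, GRCm38.p6).
Hmgcs1: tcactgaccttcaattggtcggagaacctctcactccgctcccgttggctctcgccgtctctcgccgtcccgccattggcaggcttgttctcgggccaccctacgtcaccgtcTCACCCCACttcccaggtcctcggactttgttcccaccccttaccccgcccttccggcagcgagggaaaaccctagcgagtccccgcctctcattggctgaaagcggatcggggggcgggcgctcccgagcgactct
The match starts 137 bases before the RefSeq gene start, which lies upstream of the GENCODE start given for the gene below. Of 18 promoters of list genes with an entry, this was the only match (5.56%), and 1.24% of all promoters held it.

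Hmgcs1 was at 20.6, 18.02 and 23.3 CPM uncultured and 250.5, 249 and 253 CPM in vehicle. It lies on chromosome 13, 119690379 to 119708260, plus strand (ENSMUSG00000093930) and rose by 3.6 in log2 units, with a standard error of 0.053 and an adjusted p of 2.66e-36 from edgeR. Sqle, which makes squalene epoxide, was at 22.3, 24.4 and 26.4 against 198, 205 and 208 CPM. An early and a later enzyme of the pathway thus both rose. Srebf2, the SREBP2 gene itself, rose from 242 ± 2.76 to 448 ± 8.13 CPM. Of the LXR and PPAR list, Abca1, a sterol exporter and target of LXR, was at 71.8, 75.1 and 73.03 CPM uncultured and 4.73, 4.89 and 4.46 CPM in vehicle. Abcg1, another exporter, fell by 1.27 in log2 units, and Mylip, a ubiquitin ligase and LXR target, went down from 60.8 ± 3.72 to 10.7 ± 0.587 CPM. Of the fatty acid genes, Fasn (fatty acid synthase) rose by 1.48, Elovl6 by 2.54 and the desaturase Scd2 by 1.78, whereas the desaturase Scd1 fell by 2.70. Plin2, which coats lipid droplets, rose from 45.3 ± 0.912 to 282 ± 7.24 CPM. That list, of LXR and PPAR targets and lipid storage, as a whole gave 14 higher and 10 lower (median 0.27).

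Immediate early genes were lower in the vehicle libraries. Of 25 tested 24 fell (median -3.11), all 24 by at least 1 on the log2 scale, where 17.2% of all genes fell that far. Fos, a subunit of the AP-1 factor, was at 2247, 2293 and 2277 CPM uncultured and 63.5, 57.1 and 61.9 CPM in vehicle. Its partner Jun was at 2325, 2265 and 2301 against 85.7, 94.4 and 86.1 CPM. Nr4a1, a nuclear receptor linked to stem cell quiescence, was at 1083, 1064 and 1088 against 6.89, 7.42 and 7.96 CPM. Every uncultured value was above every vehicle value for these 3 genes. Nr4a1 lies on chromosome 15, 101254269 to 101274795, plus strand (ENSMUSG00000023034) and fell by 7.18 in log2 units, with a standard error of 0.040 and an adjusted p of 2.33e-49 from edgeR. Klf2, a factor of lymphocyte and stem cell quiescence, was at 907, 855 and 924 against 14.5, 17.03 and 11.8 CPM, and Egr1, which holds stem cells in the niche, at 537, 570.3 and 553 against 53.5, 57.2 and 52.5 CPM. Fosl1 was the member that rose, from 2.04 ± 0.364 to 3.37 ± 0.155 CPM. The young uncultured libraries had 1535 ± 27.1 CPM of Fos and 469 ± 6.13 CPM of Nr4a1, and the uridine libraries 472 ± 7.18 and 166 ± 2.59 CPM. The sources used here do not give the time between tissue collection and lysis, and its part in these levels was not tested.

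Feedback genes of growth factor signaling were divided. ERK feedback targets gave 11 higher and 5 lower of 16. Etv5, an ETS factor, rose from 9.89 ± 1.5 to 22.1 ± 1.92 CPM, while the inhibitor Spry2 fell from 22.9 ± 1.7 to 9.81 ± 0.989 CPM. JAK-STAT feedback targets gave 9 higher, 7 lower and 3 not called of 19 (median -0.01). Socs3, an inhibitor induced by IL-6 type cytokines, was at 193, 183 and 182 CPM uncultured and 20.5, 21.3 and 21.1 CPM in vehicle. Cish, a target of STAT5, was at 11.4, 11.3 and 14.8 against 12.3, 12.5 and 11.97 CPM and was not called. Pim1, a kinase that STAT5 induces, fell by 1.47. Of 28 receptors 19 rose. Csf2rb2, the IL-3 receptor beta chain, was at 12.9, 11.97 and 11.9 CPM uncultured and 142, 139 and 143 CPM in vehicle, and Il1r1 at 18.2, 19.8 and 18.6 against 76.7, 76.03 and 74.7 CPM. Ifngr1, the interferon gamma receptor, fell from 265 ± 4.81 to 125 ± 3.21 CPM. Of 26 chemokine and adhesion receptors 13 rose and 12 fell. Cxcr4, the CXCL12 receptor that keeps stem cells in the marrow, was at 259, 266 and 267 against 82.4, 82.7 and 86.02 CPM, and Ccr2, the CCL2 receptor of monocytes, at 46.01, 44.4 and 48.3 against 196, 192 and 187 CPM.

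Cell cycle genes rose by small steps. All 30 genes of the G2 and M phases rose (median 0.69), 3 of them by at least 1 on the log2 scale, and 32 of 37 S phase genes rose (median 0.41). Mki67, the proliferation antigen Ki-67, was at 351, 382 and 369 CPM uncultured and 622, 618 and 636 CPM in vehicle. Top2a, the topoisomerase of dividing cells, was at 422, 431 and 416 against 658, 664 and 667 CPM. Mcm2, a subunit of the replication helicase, rose from 204 ± 6.46 to 286 ± 4.01 CPM. The groups did not overlap for these 3 genes, yet each changed by less than 1 on the log2 scale. Uncultured young libraries had 1195 ± 11.7 CPM of Mki67. Among cell cycle brakes and p53 targets 12 of 24 rose and 9 fell. Cdkn1a, the p21 inhibitor, rose from 82.5 ± 2.14 to 139 ± 2.63 CPM and Ccng1, a p53 target, was at 54.5, 61.02 and 52.8 against 175, 181 and 179 CPM. Eda2r, Phlda3 and Zmat3, further p53 targets, rose by 5.1, 3.23 and 2.0, whereas Trp53inp1, another, fell by 2.43. Cdkn1c, the p57 inhibitor of quiescent stem cells, was at 4.86, 6.26 and 5.65 against 4.42, 3.63 and 4.24 CPM and was not called. Genes of Myc and ribosome biogenesis gave 20 higher and 8 lower of 34 (median 0.14), and Odc1, the polyamine enzyme, fell by 1.67.

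Genes of energy and nucleotide metabolism had list medians between -0.41 and 0.27. Of 22 glycolysis genes 14 rose (median 0.27), including Hk2, a hexokinase, from 76.8 ± 6.87 to 126 ± 2.72 CPM and Ldha, lactate dehydrogenase, from 536 ± 14.02 to 689 ± 12.2 CPM. Of 46 nuclear genes of oxidative phosphorylation 24 fell, 6 rose and 16 were not called (median -0.13), and none changed by 1 or more. Of 13 mitochondrially encoded genes 9 fell (median -0.41), but mt-Co1, a subunit of complex IV, rose by 0.14. As a share of all counts, before TMM scaling, the mitochondrially encoded genes together took 1.33% ± 0.0294 uncultured and 1.61% ± 0.00400 in vehicle (SD, n = 3). Of 29 genes of pyrimidine and purine synthesis 15 rose and 9 fell. Cad, which starts pyrimidine synthesis, rose by 0.25 and Dhodh, its mitochondrial dehydrogenase, fell by 0.31. Upp1, uridine phosphorylase, was at 5.53, 4.11 and 2.55 CPM uncultured and 7.68, 6.76 and 9.04 CPM in vehicle.

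Stress and quality control genes were divided by branch. Of 28 genes of the unfolded protein response and secretion 20 fell (median -0.41). Herpud1, which serves degradation at the endoplasmic reticulum, was at 580.5, 569 and 571 CPM uncultured and 80.7, 86.4 and 83.5 CPM in vehicle. Xbp1, a factor of this response that plasma cells need, was at 855, 855 and 864 against 225, 222 and 217 CPM, and the chaperone Hspa5 fell by 0.35 only. Plasma cell markers were higher in the same uncultured libraries, as given above, and their part in this list was not tested. Oxidative stress genes under NRF2 rose, 15 of 21 (median 0.97). Slc7a11, the cystine transporter, was at 0.732, 0.765 and 0.758 CPM uncultured and 43.9, 45.4 and 44.7 CPM in vehicle, and Hmox1, heme oxygenase, at 12.4, 12.4 and 13.2 against 74.1, 72.1 and 76.4 CPM. Mt1, a metallothionein that binds zinc, fell from 112 ± 1.05 to 12.9 ± 1.61 CPM. Of the ATF4 targets 13 of 25 rose and 10 fell. Asns, asparagine synthetase, rose by 0.29 while Chac1, a glutathione-degrading enzyme, fell by 1.33. Aminoacyl-tRNA synthetases (15 of 21 higher) and heat shock chaperones (15 of 21 higher) had medians of 0.21 and 0.37.

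Genes of lysosomes and autophagy and of iron handling were more often higher than lower. Of 28 lysosome and autophagy genes 20 rose (median 0.63). Ctsd, the protease cathepsin D, was at 170.4, 172 and 167 CPM uncultured and 564, 574 and 559.98 CPM in vehicle, and Lamp1, a lysosomal membrane protein, at 269, 278 and 282 against 559.6, 567 and 551 CPM. Of 15 genes of iron handling 12 rose, and Slc40a1, the iron exporter ferroportin, fell from 20.5 ± 1.19 to 6.91 ± 0.667 CPM. In the BCL2 family and apoptosis list (12 higher and 8 lower of 23) the survival genes Bcl2l1 and Mcl1 moved in opposite directions. Bcl2l1 rose from 17.6 ± 2.21 to 50.8 ± 0.845 CPM, and Mcl1, on which stem cells depend, fell from 734 ± 14.7 to 378 ± 3.47 CPM.

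Histone and clock genes were mostly lower. Of 22 histone genes 16 fell (median -0.92), although most replication histone messages lack a poly(A) tail and are poorly measured after poly-T selection. Hist1h1c, a linker histone, was at 297, 299 and 301 CPM uncultured and 42.6, 39.9 and 42.8 CPM in vehicle. The DNA methylation and Polycomb list gave 11 higher and 5 lower of 18 (median 0.25). Cbx7, a Polycomb subunit of stem cells, was at 217, 228 and 224 against 17.6, 16.6 and 18.02 CPM, while Dnmt3a, a DNA methyltransferase, rose from 81.1 ± 3.76 to 168 ± 2.46 CPM. Of 19 clock genes 17 fell (median -0.86). Per1, which also responds to acute stimuli, was at 365, 369 and 371 CPM uncultured and 42.1, 45.4 and 44.3 CPM in vehicle, and Dbp, an output gene of the clock, at 10.7, 10.6 and 9.37 against 3.68, 2.75 and 4.01 CPM. Nuclear and small nucleolar RNA host genes gave 9 lower of 13. Gas5 fell by 0.95, and Neat1 was at 259.7 ± 8.76 and 260.3 ± 3.94 CPM and was not called.

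The genes with the largest rises among protein-coding genes that averaged 5 CPM or more across the 6 libraries were led by Apol9a, Mmp12 and Ccl7, each with 0 counts in the uncultured libraries. Apol9a, an interferon-induced apolipoprotein L gene with a near-identical copy in Apol9b, was at least 315-fold higher in vehicle. Mmp12, the elastase of macrophages, was at least 256-fold higher. Saa3, an acute-phase gene of macrophages, was at 0.133, 0.487 and 0.207 CPM uncultured and 366, 357 and 346 CPM in vehicle. Slc6a4, the serotonin transporter of platelets and basophils, was at 0, 0.209 and 0.138 against 152, 148 and 153 CPM. Acod1, which makes itaconate in activated macrophages, was at 0.466, 0.417 and 0.551 against 286, 291 and 292 CPM. Nos2, inducible nitric oxide synthase, rose by 7.97 on the log2 scale. Each of these genes was at or near 0 in the uncultured aged libraries and high in all 3 vehicle libraries. The rule ranked genes by fold change and required no overlap between groups, so it favored such genes.

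By the same rule, the largest falls were those of Gnb3 and Ermap. Gnb3, a G protein subunit, had 1 count in the vehicle libraries and a ratio of uncultured to vehicle of 995 (95% counting interval 178 to 39331). Ermap, an erythroid membrane protein, had 2 counts and a ratio of 771 (95% counting interval 213 to 6370.3). Ctla4, an inhibitory receptor known from T cells, was at 145, 155 and 155 CPM uncultured and 0.736, 0.604 and 0.395 CPM in vehicle. Its uncultured level was well above those of Cd3e and Cd8a given above, and which cells carried it was not tested. Bank1, a B cell scaffold, was at 90.9, 100.5 and 100.2 against 0.789, 0.494 and 0.96 CPM. Il9r, the IL-9 receptor, fell by 6.64 on the log2 scale from 33.4 ± 3.72 to 0.322 ± 0.261 CPM. Bmp6, a growth factor that signals iron status, had 2 counts in the vehicle libraries and a ratio of 346 (95% counting interval 95.3 to 2863). Most of these genes were also low in the uncultured young libraries. There Gnb3 was at 0.0349 CPM, Bmp6 at 0.105, Il9r at 0.929, Ctla4 at 3.8 and Bank1 at 7.98. Ermap, in contrast, was at 88.1 CPM there. The young levels are given as values with no test.

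The length of the gene model moved with the result. Protein-coding genes were ordered by exon length in 5 groups of nearly equal size. The median log2 fold change went from -0.12 in the shortest genes to 0.17 in the longest. The share called higher went from 28.4% to 50.7%, and the share called lower from 41% to 30.1%. The part of length in single genes was not tested.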

How the data were processed

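Messenger RNA of 12 libraries was purified with poly-T beads and sequenced as read pairs (per the labels' protocols). Per the submitters' processing notes, the tools were HISAT2 2.0.5 and the build mm10. The authors deposited a table of raw counts per Ensembl gene ID. The sources used here do not name the counting program, its annotation or its strand setting, and overlapping and antisense genes cannot be told apart. No value column was left without a sample.

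Symbols came from GENCODE M21 (54495 of 54532 IDs matched). Genes were filtered with filterByExpr (minimum count 10), scaled with TMM and fitted with 1 mean per group over all 12 libraries in edgeR 4.0.16 (R 4.3.3). Contrasts used the quasi-likelihood F-test with Benjamini-Hochberg adjustment over 16675 genes and a threshold of 0.05. Alternatives were DESeq2 1.42.0, limma 3.58.1 voom, other scalings, filters and fits, and leaving out each library. In simulated counts where few genes changed, edgeR recovered 48% of 1.25-fold and 98% of 2-fold changes, with 6.74% of its calls false. The simulation gave all groups the same composition. It therefore does not cover the shift in immunoglobulin share or the large part of genes called here. Replicate numbers were checked for pairing: deviations from group means of same-numbered libraries had correlations of -0.00126 to 0.0115.

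The members and lists were chosen with earlier results of these data known. Named genes were members of the lists, the 15 largest changes each way among protein-coding genes that averaged 5 CPM or more across the 6 libraries with no overlap, or the most abundant genes. Among list members, those with the smallest p were preferred. Ifnb1, Ifng and Ptprc were chosen after their values were seen. Promoters were read from RefSeq (250 bases before to 50 after each gene start). Results for some genes are not reported here.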

Additional observations from a re-analysis of the deposited data

How the results depend on the processing

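The counts of genes higher (5182 to 6228) and lower (5030 to 6430) stayed within 1.5 times the reported ones under every alternative run, and likewise the counts of changes of at least 1 on the log2 scale. With single libraries left out, 5699 to 5848 genes were higher and 5673 to 5763 lower. DESeq2 gave 5963 higher and 6430 lower. DESeq2 and the run without the low-count filter took in 29963 genes, against 16675 in the main run. Their shares of genes called were 41.4% and 41.5%, against 70.5%. Of the counts of called list members, 13 moved by more than a factor of 1.5 and 1715 did not. Those that moved include lists whose genes a setting left out. With upper quartile factors 45.6% of calls were higher, against 50.2% as reported, and the median over all genes shifted by -0.06. With the replicate block, 5485 genes were higher and 5504 lower, but same-numbered libraries did not deviate together, so the numbers were not taken as pairs. Of the named genes, none changed sign where it was called in the main or the alternative run. Sign changes of genes called in neither run were not counted. Procr was also called with limma voom (adjusted p = 0.0436), and Cdkn1c with upper quartile factors (edgeR adjusted p = 0.0438) and in a fit of the 6 compared libraries (edgeR adjusted p = 0.0335). Flt3 was not called without vehicle replicate 2 (edgeR adjusted p = 0.0550) or without uncultured replicate 3 (edgeR adjusted p = 0.0510). Ptprc was called without the low-count filter (edgeR adjusted p = 0.0138) and without uncultured replicate 2 (edgeR adjusted p = 0.0305). The causes of these changes were not tested. With a common biological coefficient of variation of 0.0438, small differences were called. Single genes with 3 counts or fewer in a group are given with bounds or ratios, except Hbb-bs, for which no level is given.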

Other observations

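Gene families grouped by the shared stem of their symbols, which were singled out after their values were seen, moved as follows. Over all genes tested, 35.4% were called higher and 35.1% lower. Of 7 Slfn genes tested all rose (median log2 fold change 3.88), as did all 6 Oas genes (median 5.83). All 5 Psme genes rose (median 0.79), and 14 of 15 Ifi genes rose (median 3.26). Schlafen, Oas and Ifi genes are interferon-inducible, and Psme genes encode proteasome activators and their relatives. All 8 Gimap genes, GTPases of lymphocytes, fell (median -3.30), and so did all 8 Krt genes (median -4.06). Of 10 caspase genes 9 rose (median 0.74), while 9 of 12 Cacna calcium channel genes fell (median -2.22). The stems Rpl and Rps hold mostly cytosolic ribosomal protein genes. Of 50 Rpl genes 46 fell and 2 rose (median -0.54), and of 44 Rps genes 37 fell and 5 rose (median -0.62).

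Genes outside the lists also differed, and they too were chosen after their values were seen. Rnf213, an interferon-induced ubiquitin ligase, was at 113, 132 and 122 CPM uncultured and 1710.2, 1691 and 1727 CPM in vehicle. Mpeg1, a pore protein of macrophages, was at 131, 142 and 123 against 755, 738 and 739.7 CPM, and Grn, the lysosomal growth factor progranulin, at 172, 162 and 172 against 852, 852 and 855 CPM. Tsc22d3, a target of glucocorticoids, was at 709, 696 and 698 CPM uncultured and 18.7, 19.7 and 18.4 CPM in vehicle. Sik1, a kinase induced by cyclic AMP, was at 665, 679.9 and 678 against 12.3, 13.1 and 13.3 CPM. The groups overlapped for none of these 5 genes.

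Most single immunoglobulin V segments had similar levels in the 3 uncultured aged libraries, though some varied more, as given above. Igkv4-90 was at 181, 193 and 186 CPM there and had 0 counts in the vehicle libraries, at least 3415-fold lower with a floor of 3 counts. Ighv9-2 was at 238, 242 and 237 against 0.21, 0.33 and 0.226 CPM. Both fell further than the median segment. Of 143 segments with a mean of at least 20 CPM uncultured, all 143 were called lower, with a median log2 fold change of -5.11. Over all genes tested, 35.1% were called lower.

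In the groups outside the comparison, Slc4a1 was at 68.9 ± 2.54 CPM in uncultured young and 24.2 ± 1.27 CPM in uridine libraries. Ltf was at 1024 ± 8.17 and 351 ± 12.4 CPM, and Hmgcs1 at 28.1 ± 1.55 and 183 ± 2.08 CPM. These levels are given as values with no test.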
